A study of Sus scrofa with 10 samples.

Results

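The genes described here are those of the urea cycle and of the nearby steps that make creatine from arginine: NAGS, CPS1, OTC, ASS1, ASL, ARG1, ARG2, GATM and GAMT. They were chosen by symbol. Each of the 9 symbols matched exactly 1 of the 25880 gene rows of the deposited table, by gene identifier, and overlap with the RefSeq gene on the same assembly gave the same name for all 9. RNA abundance was measured in 9 single tissues and 1 pooled library from Northeast Min pigs, a breed of domestic pig, at 60 days old. The tissues were liver, kidney, heart, spleen, lung, ovary, subcutaneous adipose and the skeletal muscles psoas major and longissimus dorsi, with 1 library each. The labels name no treatment or genotype and do not say how many animals were used. With 1 library per tissue no difference has a replicate check, so values are given without errors or tests, and neighbours in an order of tissues cannot be said to differ beyond their spread.

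The urea cycle turns ammonia, which is toxic, into urea. NAGS makes N-acetylglutamate, the activator that CPS1 needs, and CPS1 and OTC act inside mitochondria to build citrulline. ASS1 and ASL then convert citrulline to arginine in the cytosol, and arginase splits arginine into urea and ornithine. The full cycle is best known from hepatocytes, whereas the proximal tubule of the kidney is known to take up citrulline and release arginine. Creatine synthesis starts from arginine and glycine with GATM, which makes guanidinoacetate, and ends with GAMT, which methylates it.

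Levels are in FPKM, a level scaled by transcript length and library size, so they can be compared between genes. The unit is not named in the file and was inferred. The summed FPKM per library was between 292495 and 369254. Depth is not stated. The spacing of low values in short genes corresponds to between 11.5 and 31.5 M fragments per single-tissue library, uncertain by a factor of 2, with liver at 16.1 M and kidney at 11.5 M. Each library was checked against markers of its tissue. All 8 hepatocyte markers were highest in liver, 1 of them (SERPINA1) at only 0.550 FPKM, and all 8 proximal tubule markers in kidney. Their summed levels were 54446 FPKM for hepatocyte markers in liver and 2321 for proximal tubule markers in kidney, against 205 for hepatocyte markers in kidney and 9.09 for proximal tubule markers in liver. In whole tissue, fewer cells of a type and less RNA per cell cannot be told apart.

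Liver and kidney held the highest level of every one of the 9 genes. With the muscles averaged into 1 class, which leaves 8 classes, 6 genes were highest in liver (NAGS, CPS1, OTC, ASL, ARG1 and GAMT) and 3 in kidney (ASS1, ARG2 and GATM). Of all 15623 genes at 1 FPKM or more in some class, 18.7% were highest in one of these 2 organs, 5.68% in liver and 13.0% in kidney. Summed over the 9 genes, the level was 1664 FPKM in liver and 2083 in kidney. ASS1 alone made up 1745 FPKM of the kidney sum and 590.0 of the liver sum, and without it liver would have the higher sum. In the other 7 tissues the sum of all 9 genes was between 21.4 FPKM in heart and 66.7 in longissimus dorsi.

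**Figure D1:**
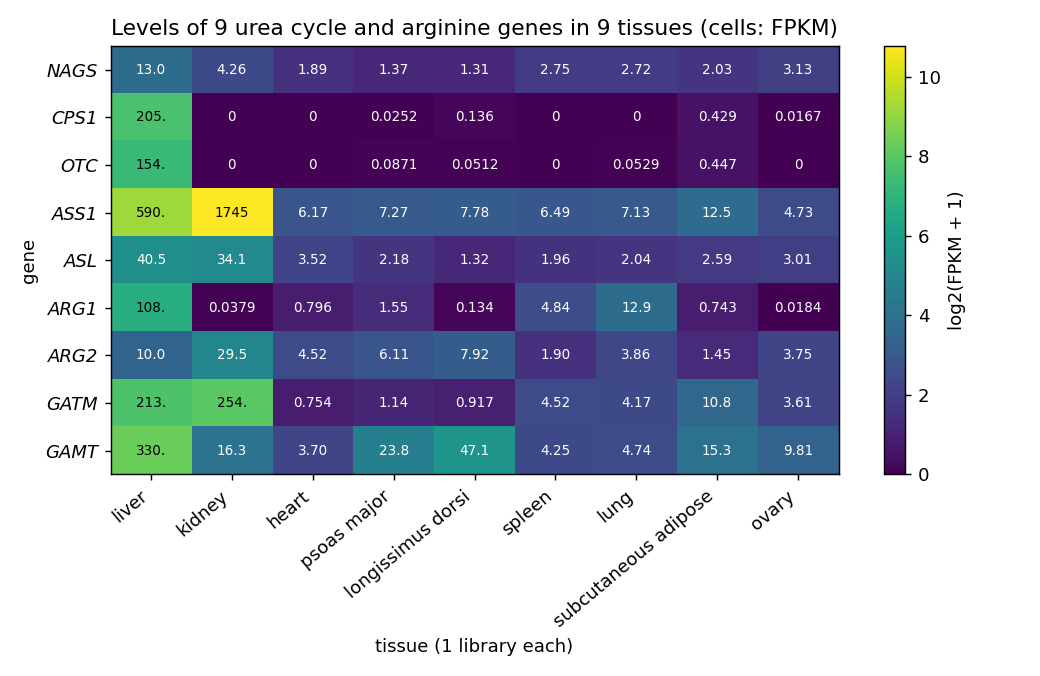
Heat map of the 9 genes (rows) in the 9 single-tissue libraries (columns), coloured by log2(FPKM + 1) with the FPKM value printed in each cell. The highest cell of each row lies in the liver or kidney column, and ASS1 in kidney (1745 FPKM) is the highest value of all.

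The mitochondrial entry into the cycle was a liver signal. CPS1 (ENSSSCG00000016159, chromosome 15, 113209631 to 113334672, plus strand), which fixes ammonia as carbamoyl phosphate, stood at 205 FPKM in liver. It was at 0.429 in subcutaneous adipose, 0.136 in longissimus dorsi, 0.0252 in psoas major and 0.0167 in ovary, and listed at 0 in heart, spleen, lung and kidney. Liver alone held 99.7% of its summed level over the 9 tissues, and in the liver library CPS1 ranked 218 among all genes.

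OTC (ENSSSCG00000012236, chromosome X, 34322260 to 34392571, plus strand), which joins carbamoyl phosphate to ornithine, had nearly the same profile. It stood at 154 FPKM in liver, 0.447 in subcutaneous adipose, 0.0871 in psoas major, 0.0529 in lung and 0.0512 in longissimus dorsi. It was listed at 0 in heart, spleen, kidney and ovary. Pearson's r between CPS1 and OTC over the 9 tissues was 1.00 on the log2(FPKM + 1) scale. That coefficient describes 9 points that share their libraries, and here it rests on 1 high point, the liver.

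Both genes were thus listed at 0 in kidney while ASS1, the next enzyme of the cycle, peaked there. Outside liver the highest level of CPS1 and of OTC was that in subcutaneous adipose, at 0.210% and 0.289% of their liver levels. The 7 hepatocyte markers at 1 FPKM or more in liver were present in adipose too, at 0.257% to 4.10% of their liver levels with a median of 0.322%, and none of them was at 0. In longissimus dorsi CPS1 and OTC were at 0.0664% and 0.0332% of liver, and the markers at 0.0530% to 0.533%. In psoas major they were at 0.0123% and 0.0564%, with the markers between 0 and 0.292%. The summed level of all 8 listed hepatocyte markers was 285 FPKM in adipose, 52.9 in longissimus dorsi and 7.19 in psoas major. The origin of these marker levels was not tested, nor was any part of liver RNA in the adipose and muscle values of CPS1 and OTC.

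**Figure D2:**
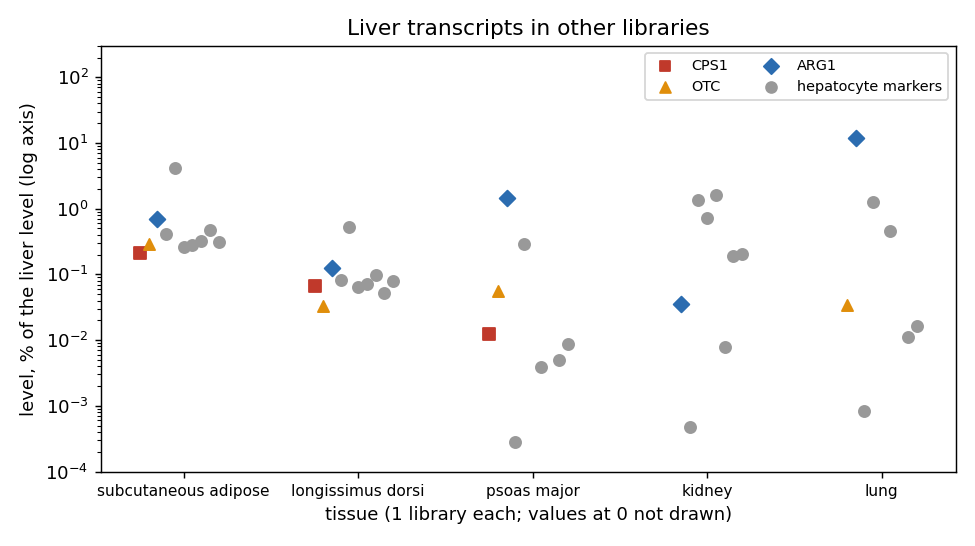
Levels of CPS1, OTC, ARG1 and the 7 hepatocyte markers in 5 libraries, as percent of their liver level on a log axis. In subcutaneous adipose CPS1 (0.210%) and OTC (0.289%) lie close to the median marker (0.322%), whereas ARG1 in lung (11.9%) lies above every marker there.

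NAGS (ENSSSCG00000024179, chromosome 12, 19167976 to 19175116, minus strand), which supplies the activator of CPS1, did not share this all-or-nothing profile. It stood at 13.0 FPKM in liver, 4.26 in kidney, 3.13 in ovary, 2.75 in spleen, 2.72 in lung, 2.03 in subcutaneous adipose, 1.89 in heart, 1.37 in psoas major and 1.31 in longissimus dorsi. Liver was 3.05 times kidney, and every tissue was above 1 FPKM, including the 4 in which CPS1 was listed at 0. The NAGS gene model of the table overlaps that of TMEM101, on the opposite strand, over 66.0% of its span, although the RefSeq models of these genes do not overlap. TMEM101 was also highest in liver (9.11 FPKM) and stood at 3.82 in kidney and 1.44 in psoas major. Strandedness is not given in the sources used here, so reads of the shared stretch cannot be assigned. OTC lies inside an unnamed gene model on the opposite strand, whose highest level was 0.0302 FPKM.

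The cytosolic pair that makes arginine was shared by both organs. ASS1 (ENSSSCG00000005701, chromosome 1, 270531589 to 270586378, plus strand), argininosuccinate synthase, was at 1745 FPKM in kidney and 590.0 in liver. The other tissues lay far below, with 12.5 in subcutaneous adipose, 7.78 in longissimus dorsi, 7.27 in psoas major, 7.13 in lung, 6.49 in spleen, 6.17 in heart and 4.73 in ovary. ASS1 was the gene of rank 8 in the kidney library and of rank 67 in the liver library. No tissue was without it: the lowest level, in ovary, was still above that of NAGS in kidney.

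ASL (ENSSSCG00000007738, chromosome 3, 16636925 to 16650691, plus strand), argininosuccinate lyase, completes the conversion. Its level was 40.5 FPKM in liver and 34.1 in kidney. In the remaining tissues it was 3.52 in heart, 3.01 in ovary, 2.59 in subcutaneous adipose, 2.18 in psoas major, 2.04 in lung, 1.96 in spleen and 1.32 in longissimus dorsi. The kidney excess of ASS1 was therefore not matched by ASL. The ratio of ASS1 to ASL was 51.2 in kidney and 14.6 in liver, against 1.57 in ovary to 5.91 in longissimus dorsi elsewhere. Across the 9 tissues ASS1 and ASL had an r of 0.96, again set by liver and kidney standing above the rest.

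The arginase genes were split between the organs. ARG1 (ENSSSCG00000004195, chromosome 1, 32006042 to 32051376, minus strand), the cytosolic arginase that closes the cycle, stood at 108 FPKM in liver and at 0.0379 in kidney. It was at 12.9 in lung, 4.84 in spleen, 1.55 in psoas major, 0.796 in heart, 0.743 in subcutaneous adipose, 0.134 in longissimus dorsi and 0.0184 in ovary. Lung and spleen were thus next after liver, and kidney and ovary lowest. The deposited ARG1 model reaches past the RefSeq gene, which ends at 32028983.

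ARG1 in lung and spleen stood beside high levels of myeloid, lymphocyte and erythroid markers. The 5 neutrophil markers summed to 168 FPKM in lung and 61.8 in spleen, and to between 0.836 in kidney and 4.31 in subcutaneous adipose elsewhere, with 3.19 in liver. The 6 macrophage markers summed to 2371 in spleen and 1888 in lung, and to between 42.2 in kidney and 360 in liver elsewhere. No marker of either list was at 0 in lung or spleen, and 1 of each list was at 0 in kidney. Of the neutrophil markers 3 were highest in lung and 2, CXCR2 and MPO, in spleen. The lymphocyte markers summed to 295 in spleen and 66.8 in lung, and to at most 8.05 elsewhere, in ovary. The erythroid markers summed to 3172 in spleen and 1120 in lung, and to at most 573 elsewhere, in heart. The part of any of these cell types in the ARG1 levels was not tested.

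ARG2 (ENSSSCG00000002294, chromosome 7, 91343988 to 91385910, plus strand) encodes the mitochondrial arginase, which is not tied to the hepatic cycle. Its order was the reverse for these organs, with 29.5 FPKM in kidney and 10.04 in liver. It was at 7.92 in longissimus dorsi, 6.11 in psoas major, 4.52 in heart, 3.86 in lung, 3.75 in ovary, 1.90 in spleen and 1.45 in subcutaneous adipose. The ratio of ARG1 to ARG2 was 10.8 in liver, 3.33 in lung and 2.54 in spleen, and below 1 in the other 6 tissues, down to 0.00128 in kidney. Over the 9 tissues the arginases had an r of -0.01. The last 10.2% of the ARG2 span overlaps VTI1B on the opposite strand, which was highest in heart (14.2 FPKM) and stood at 9.32 in kidney.

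The creatine pair was also divided. GATM (ENSSSCG00000004672, chromosome 1, 126361880 to 126382617, plus strand), which uses arginine to make guanidinoacetate, was at 254 FPKM in kidney and 213 in liver. It was at 10.8 in subcutaneous adipose, 4.52 in spleen, 4.17 in lung, 3.61 in ovary, 1.14 in psoas major, 0.917 in longissimus dorsi and 0.754 in heart. Which organ was higher depended on the scaling, since median-of-ratios scaling put liver above kidney (difference of -0.86, kidney minus liver, against 0.25 as deposited, in log2(FPKM + 1)). The striated muscles, the main users of creatine, were the 3 lowest tissues for GATM.

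GAMT (ENSSSCG00000023142, chromosome 2, 77075894 to 77079759, plus strand), which completes creatine, was a liver gene with a second level in skeletal muscle. It stood at 330 FPKM in liver, 47.1 in longissimus dorsi, 23.8 in psoas major, 16.3 in kidney and 15.3 in subcutaneous adipose. Ovary was at 9.81, lung at 4.74, spleen at 4.25 and heart at 3.70. The ratio of GATM to GAMT was 15.6 in kidney and 0.647 in liver, and it was lowest in longissimus dorsi (0.0194) and psoas major (0.0479). By RNA level, kidney thus had far more GATM than GAMT, and skeletal muscle far more GAMT than GATM. The GAMT values carry the limit of an overlapping gene, described next.

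The table's GAMT model overlaps NDUFS7, a respiratory chain gene on the opposite strand, over 82.4% of its span, while the RefSeq models of the pair do not overlap. NDUFS7 stood at 246 FPKM in heart, 175 in psoas major, 94.9 in longissimus dorsi, 54.9 in liver and 43.2 in kidney. It was at 24.5 in subcutaneous adipose, 21.7 in spleen and 14.8 in both lung and ovary. Heart, where NDUFS7 was highest, had the lowest GAMT level. Both skeletal muscles came next after heart for NDUFS7 and next after liver for GAMT. Between them, psoas major was higher for NDUFS7 and longissimus dorsi for GAMT. Without strandedness, reads of the shared stretch cannot be assigned for this pair either. The part of NDUFS7 reads in the GAMT levels was not tested.

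To set the steps side by side between liver and kidney, the difference in log2(FPKM + 1), kidney minus liver, was taken for each gene, with a threshold of 2 (4-fold). The 4 genes past it towards liver were CPS1, OTC, ARG1 (-6.72) and GAMT (-4.26). CPS1 and OTC were listed at 0 in kidney, so no fold is given for them. None of the 9 passed towards kidney. Among 12476 genes tested, 3.83% passed towards liver and 11.0% towards kidney. The 5 genes within the threshold were NAGS (-1.41), ASL (-0.24), GATM (0.25), ARG2 (1.47) and ASS1 (1.56), and the median of the 9 was -1.41.

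All genes were offset towards kidney by a median of 0.87, and this offset was -0.04 after median-of-ratios scaling and 0.07 after quantile normalisation. ASS1 and ARG2 lay above kidney's median offset and GATM and ASL below it. Under median-of-ratios scaling the kidney excess of ASS1 was 0.44 and that of ARG2 0.42, and NAGS moved past the threshold towards liver (-2.43). Under quantile normalisation ASS1 passed it towards kidney (2.47). CPS1, OTC, ARG1 and GAMT stayed past the threshold towards liver under each scaling tried.

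**Figure D3:**
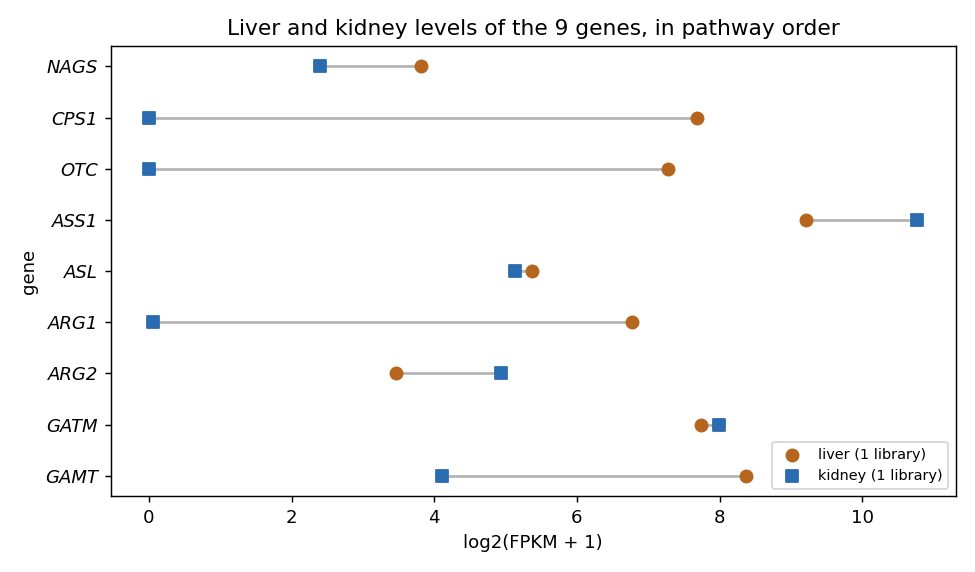
Levels of the 9 genes in liver (circles) and kidney (squares) as log2(FPKM + 1), in the order of the pathway. CPS1 and OTC are at 205 and 154 FPKM in liver and listed at 0 in kidney, ASS1 and ARG2 are higher in kidney, and ASL and GATM lie close together.

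A stricter rule of tissue enrichment asks for FPKM + 1 at least 5-fold above that of each other class. It uses the same liver and kidney values, so only genes already past the 4-fold threshold could meet it in these organs. CPS1, OTC, ARG1 and GAMT were enriched in liver, against 1.51% of the 15623 genes. None was enriched in kidney, against 1.04%, which followed from none passing the threshold towards kidney. For ARG1 the next class was lung, at 12.9 FPKM, and for GAMT it was skeletal muscle, at a mean of 35.5. The 4 genes that overlap another gene model were NAGS, OTC, ARG2 and GAMT. Without these, CPS1 and ARG1 remained past the liver threshold and enriched in liver.

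Other genes of the pathway were taken from 10 lists written from textbook knowledge. Of 75 listed genes 70 were matched and 64 reached 1 FPKM in liver or kidney. Of these, 16 passed the threshold towards kidney and 5 towards liver, with a median of 0.95 beside 0.87 for all genes tested. Over all 12476 genes tested, 11.0% passed towards kidney and 3.83% towards liver, and these shares also apply to the counts by list below. After median-of-ratios scaling the counts were 7 and 9, and after quantile normalisation 11 and 6. The share of calls over all genes that favoured kidney was 74.2% for the values of the table. It was 43.9% with median-of-ratios scaling and 48.4% with quantile normalisation. The direction of such counts thus depends on the scaling, although those of the pathway genes reversed only with median-of-ratios scaling. The 5 liver genes were GLS2, CA5A, MAT1A, GNMT and GCGR, and each stayed past the threshold under every scaling tried.

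Carriers move the cycle's intermediates across the mitochondrial membrane. SLC25A15, the ornithine carrier, was at 30.5 FPKM in kidney and 23.2 in liver, and at most 5.21 elsewhere, in ovary. SLC25A13, the hepatic aspartate-glutamate carrier, was highest in liver (50.6, against 27.8 in kidney). Its paralogue SLC25A12 was at 1.39 in liver and 13.4 in kidney, past the threshold, and reached 128 in psoas major. Of the 4 matched carriers, SLC25A12 was the 1 that passed, and the median was 0.88. Its difference of 2.59 as deposited was 1.79 after median-of-ratios scaling and 1.66 after quantile normalisation, short of the threshold in both.

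Genes of nitrogen supply to the cycle were led by liver in part. GLS2, the liver-type glutaminase, was at 28.2 FPKM in liver and 2.93 in kidney (-2.89). CA5A, a mitochondrial carbonic anhydrase that supplies bicarbonate to CPS1, was at 23.7 in liver and 0.405 in kidney (-4.13). GLUD1, glutamate dehydrogenase, was at 211 and 220. GOT1 was the most abundant of this list over all libraries, and was highest in heart (332). Of 7 tested genes GLS2 and CA5A passed towards liver, and the list median was 0.06. Of the 4 urea and ammonia transporters, RHCG, an ammonia channel, passed towards kidney (19.0, and listed at 0 in liver), and RHBG stood at 9.46 in kidney and 5.49 in liver. The urea transporter genes SLC14A1 and SLC14A2 reached 1.84 and 1.36 in kidney, and in liver SLC14A1 was at 0.00479 and SLC14A2 was listed at 0.

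Genes between ornithine and proline came next. OAT, ornithine aminotransferase, was at 80.6 FPKM in kidney and 10.05 in liver (2.88). ALDH18A1, which makes the precursor of ornithine and proline from glutamate, was at 22.8 and 3.53 (2.40). Both passed towards kidney, but after median-of-ratios scaling their differences were 1.83 and 1.44. None of the 7 tested genes passed towards liver, and the list median was 1.22. PRODH2, hydroxyproline dehydrogenase, the most abundant of the matched genes in kidney, was at 181 there and 77.5 in liver. OAT had the highest mean of the list and peaked in subcutaneous adipose (106).

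Basic amino acids enter and leave kidney tubule cells through paired carriers. SLC3A1 and SLC7A9, the pair that reabsorbs cystine and basic amino acids at the brush border, were at 116 and 14.6 FPKM in kidney and 3.31 and 0.267 in liver (4.76 and 3.62). SLC7A7 and SLC3A2, the pair that releases basic amino acids at the basolateral side, were at 126 and 104 against 17.5 and 15.6 (2.79 and 2.66). These 4 of 7 tested genes passed towards kidney, with a list median of 2.66. SLC7A2, the low-affinity arginine carrier, was at 5.37 in liver and 1.98 in kidney. After median-of-ratios scaling SLC3A1 (3.80) and SLC7A9 (3.14) stayed past the threshold, and SLC7A7 (1.71) and SLC3A2 (1.59) did not.

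**Figure D4:**
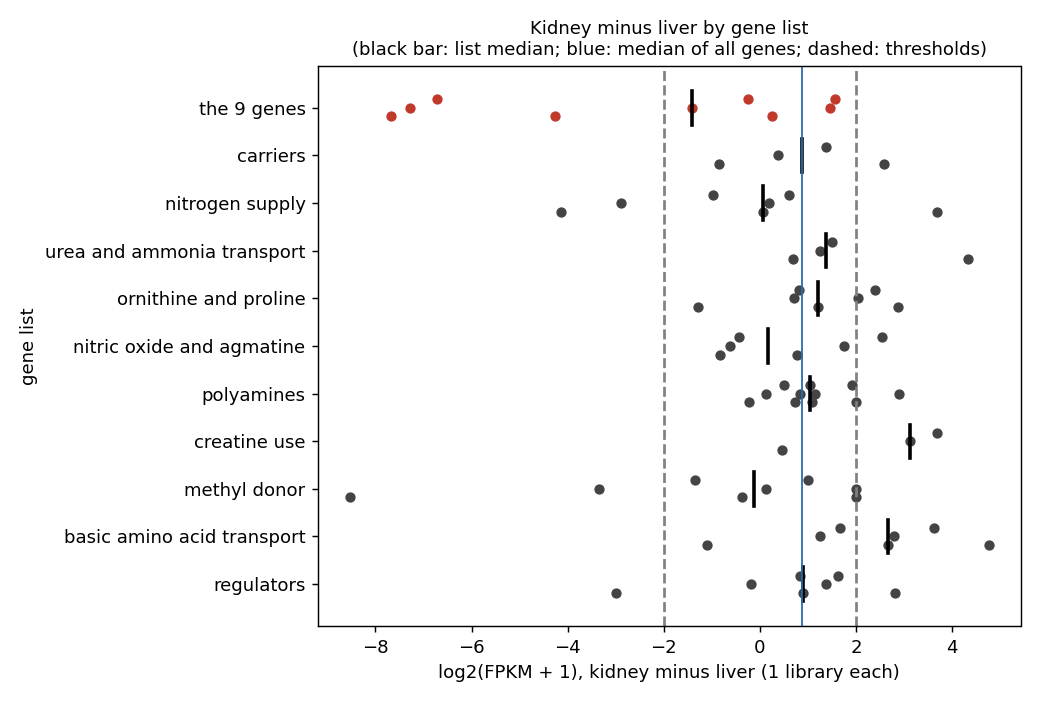
Difference in log2(FPKM + 1), kidney minus liver, for each gene of the 9 and of 10 pathway lists, with list medians (black bars), the median of all genes (blue line, 0.87) and thresholds of 2 either way (dashed). The 9 genes have a median of -1.41, and the list of basic amino acid transport has one of 2.66.

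The methyl group that GAMT uses comes from S-adenosylmethionine, and its supply was divided as well. MAT1A, the liver-type enzyme that makes it, was at 368 FPKM in liver and listed at 0 in kidney, whereas MAT2A and MAT2B, subunits of the widely expressed form, were at 24.8 and 13.96 in liver and 101 and 59.1 in kidney (1.99 and 2.01). GNMT, which consumes the same donor, was at 43.6 in liver and 3.36 in kidney (-3.35). BHMT, which remakes methionine from betaine and was the most abundant of the list, was at 539 and 210 (-1.35). Of 8 tested genes, 2 passed towards liver and 1 towards kidney, MAT2B, which did not pass after median-of-ratios scaling (0.93).

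Arginine and ornithine have other users. AGMAT, agmatinase, was at 240 FPKM in liver and 134 in kidney and at most 0.396 in the other single tissues, and AGXT2, which breaks down methylated arginine, at 120 and 88.2. DDAH2, which also clears methylated arginine, was at 23.9 in kidney and 3.30 in liver (2.53) and highest in ovary (120). Among the 11 polyamine genes SMS, spermine synthase, passed, at 125 in kidney and 16.0 in liver (2.89). ODC1, which turns ornithine into putrescine, was at 44.9 and 40.8. OAZ1, the antizyme that restrains ODC1, was the most abundant of that list, at 230.0 in kidney and 161 in liver. Neither DDAH2 (1.58) nor SMS (1.81) passed after median-of-ratios scaling.

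Of the regulators of the cycle in liver, GCGR, the glucagon receptor gene, was at 128 FPKM in liver, 15.2 in kidney and 11.8 in lung (-2.99, kidney minus liver). HNF4A was at 94.3 in kidney and 50.03 in liver and at most 0.515 in the other single tissues, and PPARA was at 29.6 in liver and 25.7 in kidney. CEBPB was listed at 0 in every single-tissue library except kidney (6.03), and CEBPA at 0 in all 10 libraries, so no liver level of either can be read from this table. GCGR had the highest mean over the 10 libraries of the 8 matched regulators. Of the 7 tested, GCGR passed towards liver and CEBPB towards kidney, with a median of 0.90. The CEBPB call, also counted among the pathway genes as a whole, rests on its kidney value alone and is not read as a difference.

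For each of the 9 genes, the genes with the most similar profile over the 9 tissues were sought among 12156 others at 5 FPKM or more somewhere, by Pearson's r of log2(FPKM + 1). For CPS1 these were APOC4, KLKB1 and SLCO1B3, and for OTC CRP, KLKB1 and SLC10A1, each with r of 1.00. For both CPS1 and OTC 79 genes exceeded 0.99, so the choice among them is arbitrary. For ASS1 the nearest were ACSM2B, HNF4A and DAO (1.00 each), and for GATM they were GLUD1, XYLB and PCK2 (0.98 each). AGXT2 and HGD were among the nearest to ASL (0.99 and 0.98). The liver and kidney levels of DAO were 56.6 and 285 FPKM, and those of PCK2 283 and 330.

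ARG1, ARG2 and GAMT had fewer close profiles, with no gene above an r of 0.95. The nearest to ARG1 were PCTP (0.95), MYCL (0.95) and ADRA1A (0.94), each highest in liver with lung next. The nearest to ARG2 were RNF14 (0.95), GPRC5C (0.95) and LDHD (0.93), all highest in kidney. The nearest to GAMT were EXTL1 (0.92), SLC38A4 (0.90) and ACSM5 (0.90), which were highest in liver with skeletal muscle next. For NAGS they were F12, HCN3 and THNSL1 (0.97 each). These names depend on the measure, since of the 27 choices 6 were shared with Spearman's rho and 9 with median-of-ratios scaling.

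The pooled library is labelled as RNA of muscle, ovary and the 5 inner organs mixed together, without adipose tissue. All 9 genes lay between the lowest and highest of the 7 component classes there. The pool held CPS1 at 63.2 FPKM, OTC at 73.6, ARG1 at 43.5, GAMT at 121, GATM at 124, ASS1 at 378, ASL at 23.1, NAGS at 11.2 and ARG2 at 8.62. CPS1 and OTC changed places relative to liver: CPS1 in the pool was 30.9% of its liver level and OTC 47.6%. Of the hepatocyte markers, ALB was at 47.3% and APOA1 at 38.2%.

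An equal mixture of the 7 classes predicted 4 of the 9 genes within 2-fold. The pool exceeded it for the liver-led genes, by 3.33 times for OTC, 2.69 for NAGS, 2.39 for ARG1, 2.16 for CPS1 and 2.096 for GAMT. A fitted mixture gave liver a weight of 46.3% and kidney one of 6.16%, and predicted all 9 within 2-fold. The pool's ratio to that fit was between 0.667 for CPS1 and 1.503 for NAGS, and it was 0.986 for ASS1 and 1.03 for OTC. The pool is not a replicate of any tissue, and the fit used all genes including these.

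**Figure D5:**
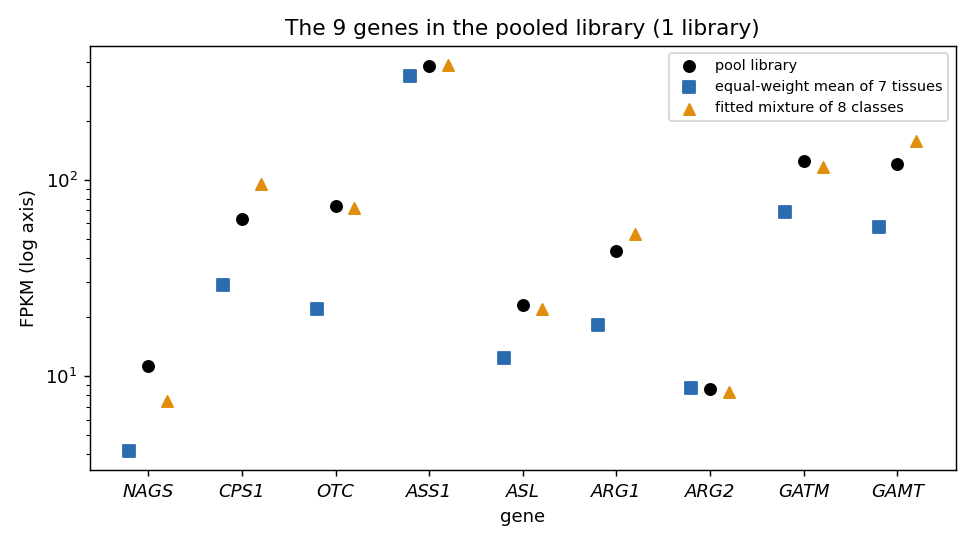
Levels of the 9 genes in the pooled library (black circles) on a log axis in FPKM, with the equal-weight mean of 7 tissue classes (squares) and the fitted mixture of 8 classes (triangles). OTC lies 3.33 times above the equal-weight mean and 1.03 times the fitted value, and CPS1 lies below its fitted value at 0.667 times.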

How the data were processed

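The deposited table holds 1 value per gene and library. Per the submitters' processing notes, the authors used the assembly Sscrofa11.1 with StringTie 1.2.2 and TopHat2 2.1.0, and the deposited values were read as FPKM from their sums, their decimals and the use of StringTie, since the file names no unit. For annotation release, strandedness and filters, the sources used here give nothing. Each tissue was its own group of 1 library, so no test was run. Symbols came from gene identifiers (14857 genes) and, failing that, from best reciprocal RefSeq overlap of at least 0.5 (1714 genes); the gene with the highest mean stood for a repeated symbol. Levels were compared as log2(FPKM + 1), with a minimum of 1 FPKM. Weights of the pool came from non-negative least squares on all genes. The genes named are the 9 members, pathway genes past the threshold, the most abundant of each pathway list, the 3 most similar genes per member and, chosen after their values were seen, some further list genes, overlapping neighbours, ALB and APOA1. Members and lists were chosen with earlier results of these data known. Depth came from value steps in genes of 400 to 1500 bp. The rules were tested on simulated data. Promoter sequences were not analysed here, and some genes that the rule names are not reported here. Alternatives varied pseudocount, scaling, filter, thresholds, muscle merging, likeness measure and pool weights. Tools were matplotlib 3.10.9, scipy 1.17.1, pandas 2.3.3, numpy 2.4.6 and Python 3.11.15.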

Additional observations from a re-analysis of the deposited data

How the results depend on the processing

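Over pseudocounts, scalings and filters, 60 of 63 differences between kidney and liver of the 9 genes kept their side of the threshold. The exceptions were NAGS under median-of-ratios scaling (-2.43) and quantile normalisation (-2.08) and ASS1 under quantile normalisation (2.47). The filters on low values cannot change a gene's difference, so their part of the 60 was fixed in advance. The count of the 9 genes towards kidney moved from 0 to 1 under quantile normalisation and to 2 at a threshold of 1. The count towards liver moved from 4 to 2 without the 4 genes that overlap another gene model, an alternative chosen after the data were seen, because fewer genes were counted. For the same reason the genes highest in liver moved from 6 to 3 and those enriched in liver from 4 to 2. Enrichment in liver also moved to 2 at 10-fold, and enrichment in kidney from 0 to 1 under quantile normalisation. Pathway genes towards kidney moved from 16 to 9 with a pseudocount of 5, to 7 under median-of-ratios scaling and to 31 at a threshold of 1. Those towards liver moved from 5 to 9 under median-of-ratios scaling and to 8 at a threshold of 1. Similar genes shared with the 27 first chosen numbered 6 with Spearman's rho and 9 under median-of-ratios scaling. Genes within 2-fold of the expected pool moved from 4 to 9 with fitted weights. Where no reason is given, the cause was not tested. No paired analysis was possible because each tissue has 1 library. Counts per gene were not used, so counting error is unknown.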

Other observations

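Creatine is taken up by a transporter and phosphorylated by creatine kinases. CKM, the muscle creatine kinase, stood at 3004 FPKM in longissimus dorsi, 1771 in psoas major and 588 in heart, and at most 3.85 in the other tissues. CKMT2, its mitochondrial partner in muscle, was at 322 in psoas major, 261 in heart and 120 in longissimus dorsi, and below 1 FPKM in the other single tissues. SLC6A8, the creatine transporter, was highest in kidney (89.3 FPKM), with 47.8 in ovary, 28.3 in heart and 5.97 in liver, and CKB, the creatine kinase of brain and other tissues, was also highest in kidney (72.1, against 7.35 in liver). SLC6A8 (3.70) and CKB (3.13) passed the threshold of kidney minus liver.

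The nitric oxide synthases use arginine directly. NOS3, the endothelial form, was highest in subcutaneous adipose (17.0 FPKM) and lung (11.9), NOS2, the inducible form, in lung (10.05), and NOS1, the neuronal form, in psoas major (3.70) and longissimus dorsi (2.05). Lung held 7.13 FPKM of ASS1 and 2.04 of ASL, and subcutaneous adipose 12.5 and 2.59. Of the 69 pathway genes at 1 FPKM or more in some class, 22 were highest in kidney and 11 in liver. Over all 15623 genes at that level, 13.0% were highest in kidney and 5.68% in liver.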
